A study of Mus musculus with 6 samples.

Results

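Mesothelial genes are those known from the mesothelium, the single-layered epithelium that covers the lung surface as the visceral pleura and lines the body cavities. They were followed here in RNA sequencing of mouse lung endothelial cell (MLEC) cultures. The genes were Msln, Upk1b, Upk3b, Lrrn4, Gpm6a, Wt1 and Bnc1, taken by symbol from the deposited gene table, and all 7 were found among its 17450 symbols. The donor mice lacked endothelial Hey1 (Hey1 iEC-KO) and carried HEY1 as an endothelial knock-in (iEC-KI). HEY1 is a transcriptional repressor induced by Notch signalling. In the HEY1-WT KI group the knock-in carried the wild-type form, and in the HEY1-3KR KI group the 3KR form, which the labels do not spell out and whose name usually stands for lysines changed to arginine. Both groups therefore shared the Hey1 knockout, and the labels name no treatment for either. There were 3 libraries per genotype, numbered 1 to 3. The Cre driver, the ages, the number of mice behind a culture and the way endothelial cells were separated from other lung cells could not be read from the labels. The labels do not say that libraries of a genotype stem from separate mice or cultures. P-values here thus reflect library-to-library spread only, and that spread may be technical.

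Mesothelial cells join features of epithelia, such as keratins and apical surface proteins, with features of mesenchyme, such as N-cadherin and vimentin. They secrete lubricating glycoproteins into the pleural space, and during development and injury some of them can become mesenchymal. Mesothelin, the product of Msln, is a lipid-anchored surface glycoprotein that binds the mucin MUC16. Uroplakins 1b and 3b, from Upk1b and Upk3b, are membrane proteins first known from the urothelium. LRRN4 is a membrane protein with leucine-rich repeats, and GPM6A is a membrane glycoprotein of the proteolipid family that is abundant in neurons. WT1 is a zinc finger transcription factor known also from kidney podocytes, and BNC1 (basonuclin 1) is a zinc finger protein known also from keratinocytes.

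The mesothelial genes did not move together. Msln, the most abundant of them, was 1.93-fold lower in HEY1-3KR KI, and Upk1b was 1.24-fold lower. Upk3b, Gpm6a and Lrrn4 were 1.61-fold, 1.52-fold and 1.38-fold higher. Wt1 missed the threshold (adjusted p = 0.0519, limma with Benjamini-Hochberg adjustment), and Bnc1 was below the filter on low values. These folds are ratios of mean FPKM, a measure of mapped fragments that allows for transcript length and for the size of the library, with 3 libraries per genotype. Because FPKM is set per transcript length, levels of different genes can be compared on it.

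The test, limma's moderated test, took every gene that reached 1 FPKM in 3 or more of the 6 libraries. It was run on log2(FPKM + 1), with p-values adjusted over all 11432 genes tested. At an adjusted p below 0.05, 53.2% of them were called, 29.9% higher and 23.4% lower in HEY1-3KR KI. Of the 7 mesothelial genes 6 were tested, 3 were called higher (Upk3b, Gpm6a and Lrrn4) and 2 lower (Msln and Upk1b). Calls were thus common throughout, and their number does not set the mesothelial genes apart. The 2 genotypes did not overlap in any of the 6 tested mesothelial genes, nor in Bnc1, against 61.1% of all tested genes that did not overlap. The median log2 fold change was 0.30 over the 6 tested mesothelial genes and 0.019 over all genes tested.

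The labels call the cells endothelial, and all 13 endothelial markers examined passed the same filter. So did 11 of 12 macrophage, 10 of 12 fibroblast and 9 of 10 smooth muscle and pericyte markers, so passing it does not tell the cell type. Endothelial markers summed to between 259.6 and 273.2 FPKM in HEY1-WT KI libraries and between 428.8 and 440.3 FPKM in HEY1-3KR KI libraries. Hey1 itself read 2.20 ± 0.0426 FPKM in HEY1-WT KI against 5.27 ± 0.422 FPKM in HEY1-3KR KI (SD, n = 3), and whether the knock-in transcript is counted under this symbol is not given. Column sums of FPKM lay between 258650 and 265967. Read totals are not given, and the steps between low values put them only roughly, at 16300000 to 19700000 fragments. In a bulk library fewer cells of a type and less RNA per cell cannot be told apart.

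For 4 of the 7 mesothelial genes (Lrrn4, Upk3b, Gpm6a and Bnc1) RefSeq start windows were found, covering 250 bases before to 50 after a transcript start on GRCm38.p6, which is mm10. No window was found for Msln and Upk1b, the genes called lower, or for Wt1. Motifs could therefore not be compared between genes called higher and genes called lower. Windows are printed for the 3 genes with a window that holds the letters GGAATG, read on either strand and shown in capitals. These letters are the core to which TEAD factors bind. The Upk3b window is on the plus strand at chr5:136038246-136038545, the Lrrn4 window on the minus strand at chr2:132880813-132881112, and the Gpm6a window on the plus strand at chr8:54779184-54779483.
Upk3b: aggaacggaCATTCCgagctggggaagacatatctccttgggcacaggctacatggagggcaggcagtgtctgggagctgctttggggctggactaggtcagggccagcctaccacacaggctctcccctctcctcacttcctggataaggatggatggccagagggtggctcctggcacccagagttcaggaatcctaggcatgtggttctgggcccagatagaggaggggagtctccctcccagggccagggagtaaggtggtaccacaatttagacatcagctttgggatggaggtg
Lrrn4: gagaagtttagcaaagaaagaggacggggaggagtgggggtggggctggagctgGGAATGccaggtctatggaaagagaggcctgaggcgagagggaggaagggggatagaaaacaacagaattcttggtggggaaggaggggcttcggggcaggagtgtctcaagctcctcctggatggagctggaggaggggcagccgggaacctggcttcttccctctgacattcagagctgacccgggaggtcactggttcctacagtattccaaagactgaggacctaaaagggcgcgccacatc
Gpm6a: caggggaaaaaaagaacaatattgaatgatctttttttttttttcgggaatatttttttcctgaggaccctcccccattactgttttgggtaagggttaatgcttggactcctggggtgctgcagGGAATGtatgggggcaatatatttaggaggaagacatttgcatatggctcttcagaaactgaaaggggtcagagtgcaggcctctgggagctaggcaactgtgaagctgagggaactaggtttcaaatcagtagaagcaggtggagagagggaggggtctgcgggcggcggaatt

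In the Lrrn4 and Gpm6a windows the core reads GGAATG on the strand of the gene, with its first base 196 and 125 bases before the start. In the Upk3b window it reads CATTCC, the same core on the other strand, 241 bases before the start. Gpm6a has another RefSeq start window, at chr8:54954478-54954777, which does not hold the core. The transcript start in that other window lies 115 bases before the GENCODE M21 start of the gene. The transcript start in the printed window lies 175409 bases before it, and which start was used is not given. The Bnc1 window does not hold it either. Of all 32851 RefSeq start windows of this length 14.7% hold GGAATG on either strand, as do 12% of the windows of tested genes. The letters CACGTG and CACGCG, forms of the E-box that HEY proteins bind, and GCGGGGGCG, a WT1 core, were not found in these 5 windows. Of all windows 7.15%, 9.27% and 2.91% hold them, and of the windows of tested genes 10.1%, 16.7% and 5.38%. The N-box CACNAG, bound by related repressors, was read only in the Bnc1 window. It is held by 42.5% of all windows and by 39.9% of the windows of tested genes. The motifs were chosen with the results known and do not overlap one another in these windows. A match of letters is a description of the sequence and not a binding site.

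Msln lies on chromosome 17 at 25748613 to 25754378 (GRCm38, minus strand, GENCODE M21), 282 bases from its relative Mslnl. It read 113.9, 114.3 and 112.5 FPKM in HEY1-WT KI libraries 1 to 3 and 58.9, 58.7 and 58.7 FPKM in HEY1-3KR KI libraries 1 to 3. The libraries of a genotype lay very close together and the genotypes far apart. On the log2 scale it changed by -0.94 ± 0.0291 (SE, here and for each log2 fold change; Benjamini-Hochberg adjusted p = 5.3e-08 in limma), and 4.01% of tested genes had a larger absolute log2 fold change. In HEY1-WT KI Msln ranked 323rd of 17463 gene entries by mean FPKM, above all 13 endothelial markers, of which Cdh5, the VE-cadherin of endothelial junctions, was the highest at 77.7 ± 4.44 FPKM. In HEY1-3KR KI it ranked 668th and stood above 11 of them, with Cdh5 at 132.5 ± 2.89 FPKM and Cldn5, the claudin of endothelial tight junctions, at 66.5 ± 1.35 FPKM above it. The FPKM of Msln was therefore 1.46 ± 0.0869 times that of Cdh5 in HEY1-WT KI against 0.444 ± 0.0097 times in HEY1-3KR KI.

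Upk1b lies on chromosome 16 at 38773184 to 38800328 (minus strand). Its FPKM was 28.1, 27.3 and 29.3 in HEY1-WT KI against 23.4, 22.3 and 22.5 in HEY1-3KR KI. Each HEY1-3KR KI library was lower than each HEY1-WT KI library, by a margin smaller than for Msln. The log2 fold change was -0.30 ± 0.0397 (limma, Benjamini-Hochberg adjusted p = 2.4e-04), and 28.7% of tested genes changed by more in absolute terms.

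Upk3b, on chromosome 5 at 136038496 to 136046487 (plus strand), went the other way. It read 4.80, 4.88 and 4.85 FPKM in HEY1-WT KI against 8.06, 7.70 and 7.66 FPKM in HEY1-3KR KI. Both uroplakins were even within a genotype, and they moved in opposite directions. The log2 fold change of Upk3b was 0.59 ± 0.0433 (limma, Benjamini-Hochberg adjusted p = 6.8e-06), and 11.1% of tested genes changed by more.

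Lrrn4, on chromosome 2 at 132868305 to 132880891 (minus strand), read 6.67, 7.09 and 6.49 FPKM in HEY1-WT KI against 8.71, 10.3 and 8.97 FPKM in HEY1-3KR KI. Its HEY1-3KR KI libraries were more spread than those of the uroplakins, with library 2 the highest, and none came down to the HEY1-WT KI range. The log2 fold change was 0.41 ± 0.0637 (limma, Benjamini-Hochberg adjusted p = 6.6e-04). Gpm6a, on chromosome 8 at 54954843 to 55060871 (plus strand), read 2.98, 2.53 and 3.13 FPKM in HEY1-WT KI against 4.86, 4.19 and 4.07 FPKM in HEY1-3KR KI. All HEY1-3KR KI libraries were again above all HEY1-WT KI libraries. Its log2 fold change was 0.47 ± 0.0789 (limma, Benjamini-Hochberg adjusted p = 0.00105).

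**Figure D1:**
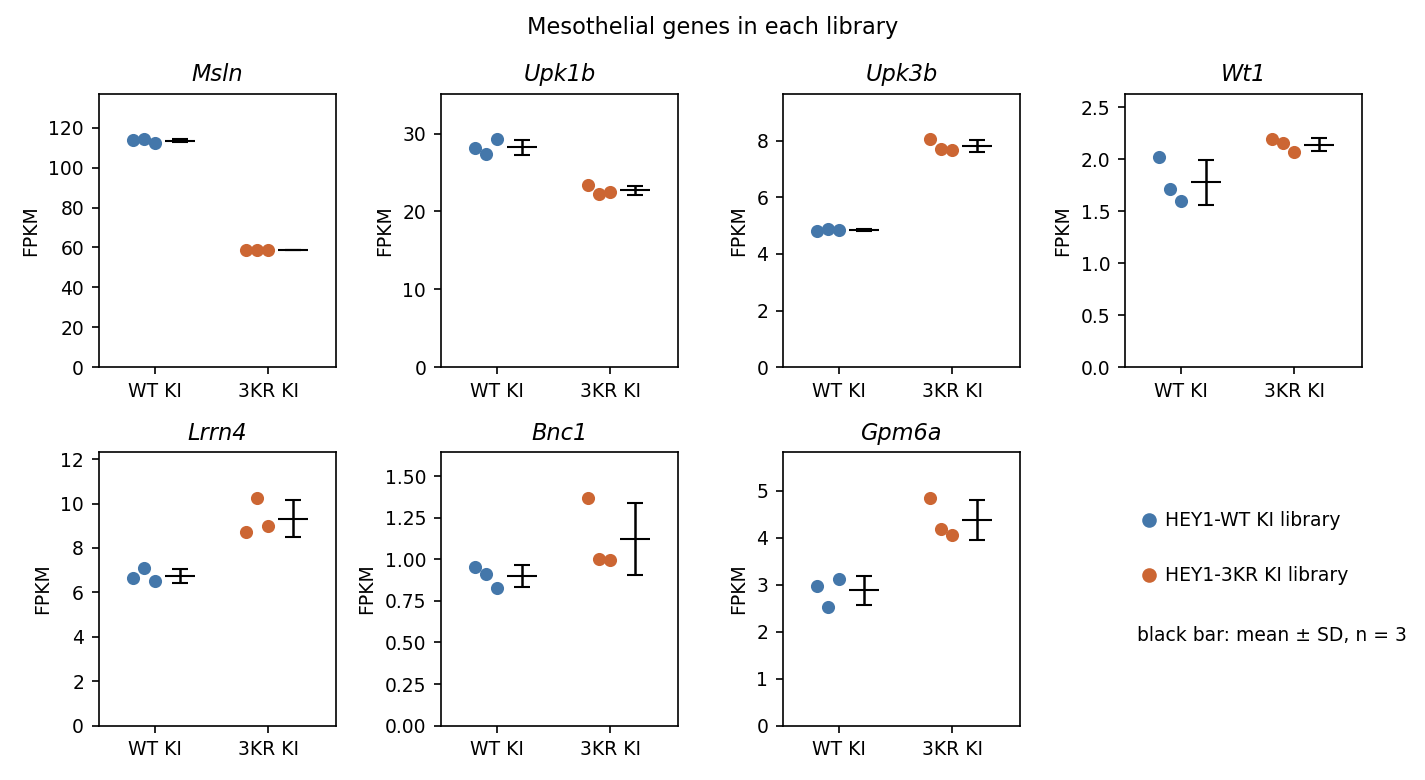
FPKM of each of the 7 mesothelial genes in each library (points, 3 per genotype) with the mean ± SD as a black bar, on axes that start at 0. Msln and Upk1b are lower in HEY1-3KR KI, Upk3b, Lrrn4 and Gpm6a are higher, and the gap between the genotypes is narrow for Wt1 and Bnc1.

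The transcription factors of the group were low. Wt1, on chromosome 2 at 105126529 to 105173616 (plus strand), read 2.02, 1.71 and 1.6 FPKM in HEY1-WT KI against 2.19, 2.15 and 2.07 FPKM in HEY1-3KR KI. The groups did not overlap, but HEY1-WT KI library 1 came close to the HEY1-3KR KI values. The log2 fold change of 0.18 ± 0.0678 did not pass (limma, Benjamini-Hochberg adjusted p = 0.0519). Without HEY1-WT KI replicate 1 it was 0.24 and passed (adjusted p = 0.0135, limma), and over the other libraries left out in turn and the other settings the adjusted p lay between 0.0374 and 0.19. The side of the threshold on which Wt1 falls therefore depended on that library and on the settings. The long non-coding gene Wt1os starts 18 bases from Wt1 in GENCODE M21 and does not overlap its exons. It has no entry under that symbol and so could not be analysed.

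Bnc1, on chromosome 7 at 81966672 to 81992292 (minus strand), read 0.955, 0.911 and 0.826 FPKM in HEY1-WT KI against 1.37, 0.999 and 0.993 FPKM in HEY1-3KR KI. HEY1-3KR KI library 1 stood above the rest, and it alone reached 1 FPKM, so Bnc1 failed the filter. Where the filter let it in, its log2 fold change of 0.16 did not pass (limma, Benjamini-Hochberg adjusted p between 0.129 and 0.162 under 3 other filters). At the approximate depths its values rested on about 76 to 108 fragments per library, which by counting alone gives an error of 9.61% to 11.5%. The corresponding ranges were 159 to 266 fragments for Gpm6a, 327 to 522 for Upk3b and 475 to 643 for Lrrn4. An annotated gene on the other strand, 4833418N17Rik, overlaps exons of Bnc1 and has no entry under that symbol. Since the handling of strand is not given, reads of 4833418N17Rik could not be told apart from those of Bnc1.

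Ratios between mesothelial genes within a library do not depend on how libraries are scaled to one another. Msln stood at 23.7, 23.4 and 23.2 times Upk3b in HEY1-WT KI against 7.31, 7.62 and 7.65 times in HEY1-3KR KI, so this ratio was 3.11-fold lower with no overlap. Upk1b stood at 5.83 ± 0.216 times Upk3b in HEY1-WT KI against 2.91 ± 0.027 times in HEY1-3KR KI (SD, n = 3). Gpm6a stood at 0.595 ± 0.0674 and 0.559 ± 0.0383 times Upk3b, and here the genotypes overlapped. Lrrn4 stood at 1.39 ± 0.0573 and 1.19 ± 0.128 times Upk3b, with the nearest libraries of the 2 genotypes almost touching at 1.34 and 1.33. The ratio of Msln to Upk1b, the 2 genes that fell, went from 4.02 ± 0.171 to 2.59 ± 0.06. Msln made up 71.4% ± 0.551 of the summed FPKM of the 7 genes in HEY1-WT KI against 55.3% ± 0.543 in HEY1-3KR KI. Their sum went from 159 ± 0.407 to 106.2 ± 1.24 FPKM, while that of the 6 genes other than Msln was 45.4 ± 0.878 and 47.5 ± 1.13 FPKM. The fall in the sum of these 7 genes was thus carried by Msln. Of the 6 others Upk1b fell, and the rest had higher means in HEY1-3KR KI. The sum of 28 further genes known from mesothelium, described below, did not fall in this way. It was 492.4 to 506.9 FPKM in HEY1-WT KI and 493.7 to 499.2 FPKM in HEY1-3KR KI.

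**Figure D2:**
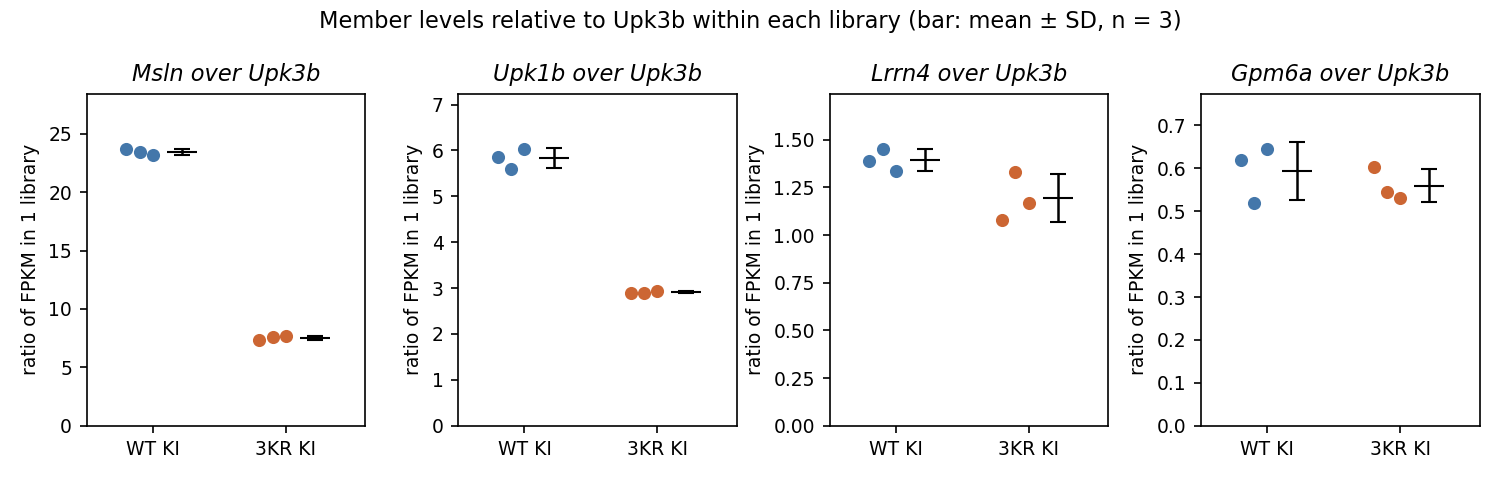
FPKM of Msln, Upk1b, Lrrn4 and Gpm6a divided by that of Upk3b in the same library (points, 3 per genotype; black bar, mean ± SD), on axes that start at 0. The ratios of Msln and Upk1b separate the genotypes widely, that of Lrrn4 barely, and that of Gpm6a overlaps.

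Close relatives of the mesothelial genes were examined because reads can be shared between gene copies. Of 12 listed, 11 had an entry and 3 passed the filter. Gpm6b, the nearest relative of Gpm6a and also of the proteolipid family, read 3.42, 3.73 and 3.43 FPKM in HEY1-WT KI against 5.56, 5.13 and 5.58 FPKM in HEY1-3KR KI. It rose 1.54-fold (limma, Benjamini-Hochberg adjusted p = 6.8e-05), close to the 1.52-fold of Gpm6a. Lrrn4cl, a membrane protein gene named for its likeness to Lrrn4, went the opposite way to it. It read 16.7, 15.1 and 15.2 FPKM in HEY1-WT KI against 3.34, 3.83 and 3.98 FPKM in HEY1-3KR KI, a 4.21-fold fall (log2 fold change -1.82 ± 0.0644; limma, Benjamini-Hochberg adjusted p = 1.0e-07). The ratio of Lrrn4 to Lrrn4cl thereby went from 0.432 ± 0.035 to 2.51 ± 0.229. Bnc2, the relative of Bnc1, read 1.42 ± 0.0226 and 1.43 ± 0.168 FPKM and did not pass (limma, Benjamini-Hochberg adjusted p = 0.945). The other relatives were low, with Lrrn2 at 0.365 and 0.338 FPKM, Lrrn3 at 0.194 and 0.487 FPKM and Upk1a at 0.287 and 0.223 FPKM in HEY1-WT KI against HEY1-3KR KI. Upk2 was listed at 0 in all libraries. Outside the naming rule, Mslnl, the neighbour of Msln, read 0.152 and 0.0974 FPKM, and its genotypes overlapped. Lrrn1 read 0.34 and 0.0479 FPKM without overlap, and both genes were too low to be tested.

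A further list of 28 genes known from mesothelium, several of them shared with other epithelia or mesenchyme, also went both ways. Of its 22 tested genes 9 were called higher, 11 lower and 2 did not pass, with a median log2 fold change of -0.11. All 4 keratins, which stand on the general epithelial list too, were higher. Of the 18 others 5 were higher, 11 lower and 2 did not pass. Krt18 rose from 26.5 ± 1.62 to 71.1 ± 0.757 FPKM and Krt8, its pairing partner, from 36.7 ± 1.27 to 86.1 ± 1.14 FPKM. Podxl, a sialomucin of mesothelium, podocytes and endothelium, rose 2.55-fold to 14.2 ± 0.395 FPKM. Igfbp6, a binding protein for insulin-like growth factors, was 2.75-fold lower at 18.7 ± 0.935 FPKM. Pdpn, podoplanin, which alveolar type I cells and lymphatic endothelium also carry, was 1.97-fold lower at 37 ± 1.02 FPKM. Ezr, ezrin, which ties membranes to actin, went from 108.8 ± 0.764 to 97.5 ± 0.639 FPKM and was also called lower (limma, Benjamini-Hochberg adjusted p = 0.00175).

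Other genes of this list are named after their values were seen, for their roles. The transcription factors Tbx18, Gata4 and Gata6, known from embryonic mesothelium such as the epicardium, fell by 1.00, 0.43 and 0.55 on the log2 scale, while Wt1, a further transcription factor of that tissue, and Bnc1 had higher means in HEY1-3KR KI and were not called. Tbx18 fell from 2.31 ± 0.101 to 0.649 ± 0.0895 FPKM, while Aldh1a2, the retinoic acid synthesis enzyme of embryonic mesothelium, rose from 3.85 ± 0.31 to 8.86 ± 0.505 FPKM. Rspo1, a Wnt potentiator, rose 1.36-fold, but it missed the threshold when HEY1-WT KI replicate 1 or 2 or HEY1-3KR KI replicate 2 was left out (limma, Benjamini-Hochberg adjusted p = 0.0547, 0.0513 and 0.061). Calb2 and Muc16 were low, unlike Msln, Pdpn and the keratins. Calb2, calretinin, was listed at 0 in 3 of the 6 libraries and did not exceed 0.098 FPKM, below the 0.152 to 0.184 FPKM that 3 fragments in a transcript of 1 kb would give. Muc16, the binding partner of mesothelin, read 0.0249, 0.027 and 0.0182 FPKM in HEY1-WT KI against 0.0825, 0.114 and 0.102 FPKM in HEY1-3KR KI, too low to be tested. Genes that carry the label of mesothelium thus ranged from among the most abundant transcripts to hardly detectable ones in the same libraries.

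**Figure D3:**
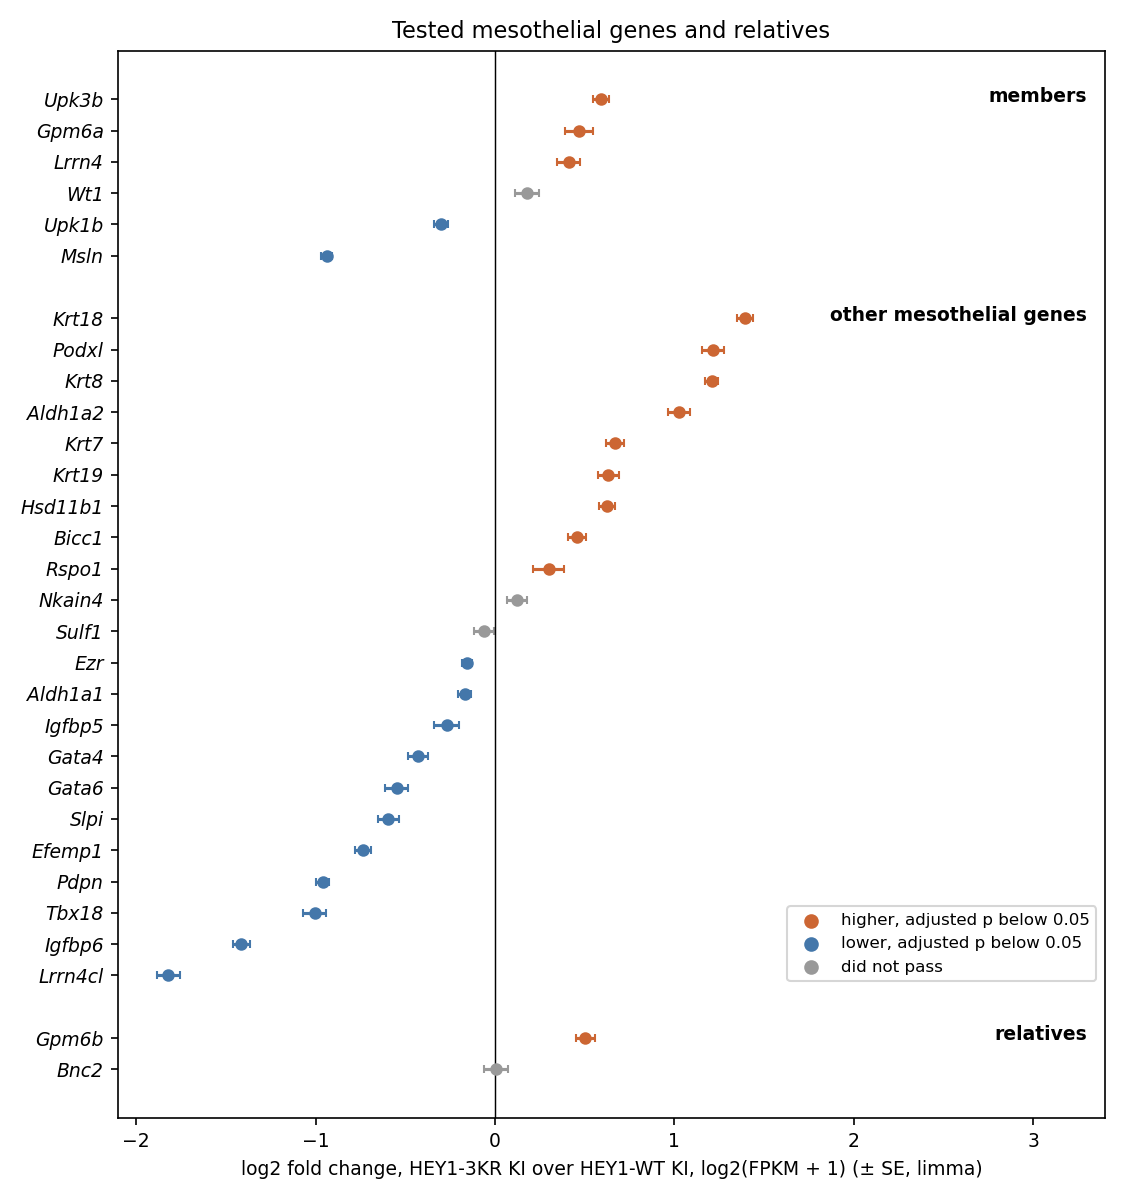
Log2 fold change (HEY1-3KR KI over HEY1-WT KI, log2(FPKM + 1) scale, ± SE from limma, 3 libraries per genotype) of the tested mesothelial genes, of the other mesothelial genes and of the remaining tested relatives. Points fall on both sides of 0 in each mesothelial set, from Lrrn4cl at -1.82 to Krt18 at 1.39.

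Partners and known targets of WT1 were counted beside Wt1 itself. Of 13 with an entry 11 were tested, 5 were called higher, 3 lower and 3 did not pass, with a median log2 fold change of 0.17. Spry1, an antagonist of growth factor signalling, rose 2.84-fold to 10.8 ± 0.46 FPKM, Wnt4 rose from 0.492 ± 0.113 to 1.23 ± 0.126 FPKM and Vdr, the vitamin D receptor, rose 1.80-fold. Basp1, a corepressor of WT1, went from 38.6 ± 2.17 to 28.7 ± 1.77 FPKM and Pawr, another WT1 partner, from 8.06 ± 1.38 to 4.83 ± 0.0471 FPKM, both called lower. These genes are used by many cell types. Podxl, which also stands on the further mesothelial list above, was among the 5 called higher.

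Genes of the switch between epithelial and mesenchymal states were mixed too. Of 14 tested, 5 were called higher, 3 lower and 6 did not pass, with a median log2 fold change of 0.06. Cdh2, the gene of N-cadherin, read 37.6, 37.2 and 36.8 FPKM in HEY1-WT KI against 15.6, 16.1 and 15.2 FPKM in HEY1-3KR KI. Cdh1, the E-cadherin of epithelia, read 2.30, 2.50 and 2.66 FPKM in HEY1-WT KI against 7.03, 7.62 and 6.996 FPKM in HEY1-3KR KI. The cadherins thus moved in opposite directions, and both separated the genotypes. Snai1 and Tgfb1, a repressor of E-cadherin and a growth factor that drives the mesenchymal state, rose 1.38-fold and 1.36-fold, whereas Twist1 fell from 1.42 ± 0.181 to 0.798 ± 0.122 FPKM. The abundant mesenchymal genes Vim and Acta2, at 869.1 ± 17.4 and 846.4 ± 19.2 FPKM and at 692.1 ± 5.97 and 707.2 ± 17.5 FPKM, did not pass (limma, Benjamini-Hochberg adjusted p = 0.365 and 0.446).

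Markers of other lung cells moved with the genotype in the same libraries, and their part in the mesothelial results was not tested. All 11 tested general epithelial markers were higher, among them the 4 keratins and Cdh1, which were already counted above. The whole list of 14 summed to 96.3 to 102.3 FPKM in HEY1-WT KI against 233.9 to 237.3 FPKM in HEY1-3KR KI. Of 10 alveolar type II markers 7 were higher and 3 did not pass, and they summed to 39.5 to 52 and 197.9 to 253.7 FPKM. Of 8 alveolar type I markers 6 were tested, 3 (Ager, Hopx and Aqp5) were higher and 1, Pdpn, lower. Their sums were 198.6 to 203 and 170.4 to 173.4 FPKM. Most of these sums came from Cav1, at 118.4 ± 3.39 and 112.4 ± 1.84 FPKM, and from Pdpn, at 72.9 ± 2.29 and 37 ± 1.02 FPKM. All 10 tested fibroblast markers were higher, with sums over 12 markers of 614.1 to 622.4 and 1166 to 1182 FPKM. All 11 tested macrophage markers were higher, with sums over 12 markers of 4246 to 4344 and 5692 to 5941 FPKM, and 9 to 11 were called under the other settings, Cd68 and Lyz2 being the ones that lost their call. Of 13 endothelial markers 12 were higher and Emcn did not pass. Of 9 tested smooth muscle and pericyte markers Mcam was higher, Des, Myh11 and Cnn1 were lower and 5 did not pass, with sums over 10 markers of 1101 to 1125 and 1134 to 1173 FPKM. Without HEY1-3KR KI replicate 3 only Des of these was still called lower (limma, Benjamini-Hochberg adjusted p = 0.0786 for Myh11 and 0.0887 for Cnn1). No marker of these lists was at 0 in every library.

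Transcripts of airway club cells were uneven between libraries of a genotype. Of 8 club and ciliated cell markers 4 were tested, Tppp3 was higher and 3 did not pass, with sums of 23.7 to 124.5 and 84.4 to 275.1 FPKM. Without replicate 3 of either genotype 3 were called higher, Scgb1a1 and Cyp2f2 in addition (without HEY1-WT KI replicate 3, limma, Benjamini-Hochberg adjusted p = 0.0041 and 0.0099). Scgb1a1, the secretoglobin of club cells, read 18.8, 31.7 and 112.3 FPKM in HEY1-WT KI against 258.1, 103.7 and 76.5 FPKM in HEY1-3KR KI. Msln spanned only 112.5 to 114.3 FPKM over the same HEY1-WT KI libraries, a coefficient of variation of 0.821%, against 93.3% for Scgb1a1. Among HEY1-3KR KI libraries those coefficients were 0.201% and 67.1%. A coefficient from 3 libraries is imprecise, and no counting error was estimated for Msln. For Upk3b the coefficient was 0.79% in HEY1-WT KI, below the 5.44% to 5.53% that counting alone gives at the approximate depths. Except for Lrrn4, the mesothelial genes had their highest HEY1-3KR KI value in library 1, as Scgb1a1 did. For Msln the margin was small, at 58.9 against 58.7 and 58.7 FPKM. In HEY1-WT KI Scgb1a1 was highest in library 3, and there the mesothelial genes were mixed. Msln, Wt1, Lrrn4 and Bnc1 had their lowest HEY1-WT KI value in it, and Upk1b and Gpm6a their highest. Without HEY1-3KR KI library 1 the calls of Upk3b and Gpm6a held. Over all libraries left out in turn the log2 fold change was 0.57 to 0.60 for Upk3b and 0.40 to 0.52 for Gpm6a.

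**Figure D4:**
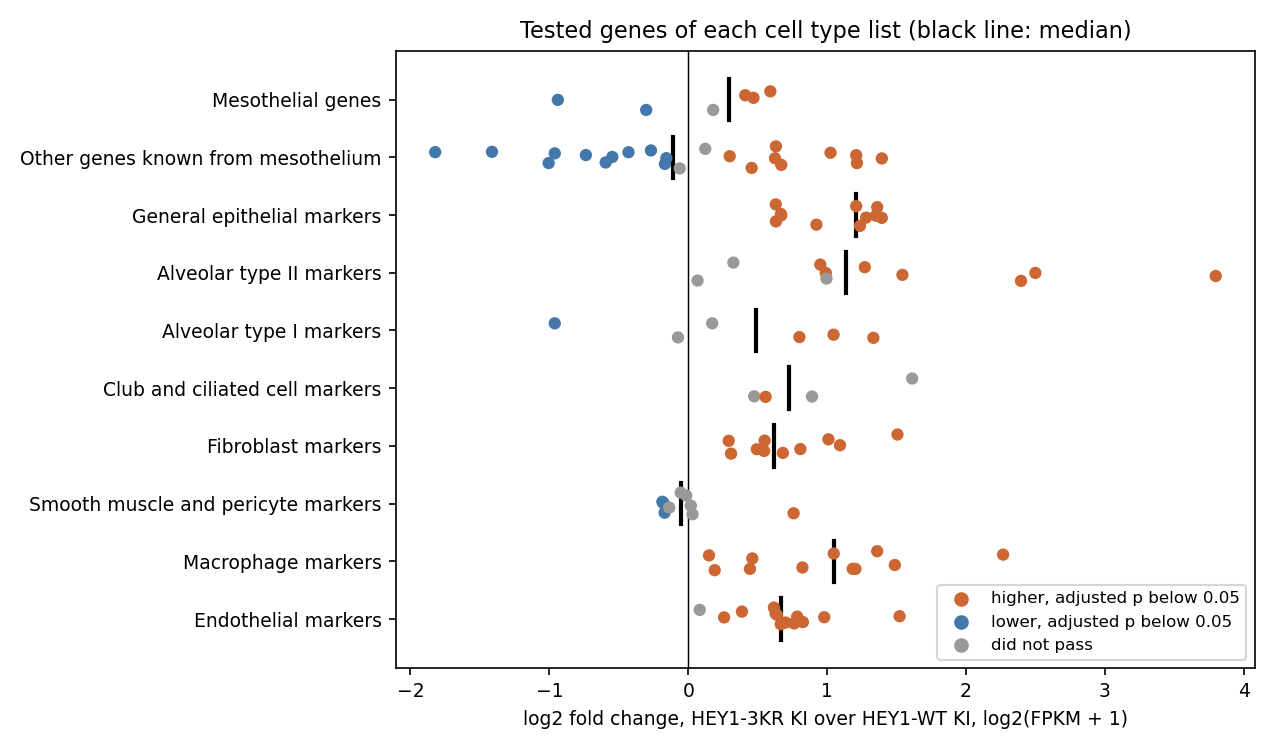
Log2 fold change (log2(FPKM + 1) scale) of every tested gene of each cell type list, coloured by whether it passed at an adjusted p below 0.05 in limma, with the list's median as a black line. The 2 mesothelial lists have genes on both sides of 0, as do the alveolar type I list and the smooth muscle and pericyte list. All tested markers of the other lists lie to the right.

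The genes whose profile over the 6 libraries was most like that of a mesothelial gene were sought among all tested genes by the root mean square distance of log2(FPKM + 1), each gene centred on its own mean. For Msln these were Gsta3, a glutathione S-transferase, Gbe1, the glycogen branching enzyme, and Gata3, a transcription factor, at distances of 0.0148, 0.0181 and 0.0189. For Upk3b they were Nos3, the endothelial nitric oxide synthase, Pik3cd and Ccnf, at 0.0187 to 0.0206. For Upk1b they were Wdfy1, Kazn and Tpm4, and for Wt1 they were Zmynd19, Hdac2 and Polr1f. The nearest of Lrrn4 was Pik3r1 at 0.025 and that of Gpm6a was Gimap5 at 0.0341. None of the 18 nearest genes was another mesothelial gene or stood on any of the lists above. The lists hold only a small share of the 11432 genes tested, so finding none of the 18 on them says little. The distance includes the difference between genotypes, so genes that changed by a like amount are near each other by construction.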

How the data were processed

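RNA was sequenced from 6 MLEC libraries, 3 per genotype. The authors deposited FPKM in a single table of 17463 gene entries by 6 libraries, as the column names state. Tools named in the submitters' processing notes are FastQC 0.19.7, HISAT2 2.1.0, SAMtools 1.9, StringTie 1.3.3b, with mm10 as the build. Which annotation was used, and how strand and multiply mapping reads were treated, was not given in the sources used here. This unit is relative to a library's total, so abundant genes that rise lower the rest, and no further scaling was applied.

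The genotypes were compared with limma 3.58.1 in R 4.3.3 (lmFit, eBayes with a trend, two-sided) on log2(FPKM + 1) for the 11432 genes that reached 1 FPKM in 3 or more libraries, with Benjamini-Hochberg adjustment over all of them and a threshold of 0.05. The pseudocount understates changes of low genes. Errors of levels are the SD over 3 libraries. Alternatives were other pseudocounts, filters and scalings, no variance trend, the replicate number as a block, and each library left out.

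No read totals are given. Depth was approximated from 2396 genes with a single transcript, as the densest low step of FPKM times length within 10000000 to 40000000 fragments. Of low values 38.1% to 42.6% lay within 0.1 of a whole multiple, where evenly spread values would give 20%, so fragment counts could not be recovered and a count test was not possible. Counting errors and floors cover counting error only.

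The mesothelial genes, the other lists and the motifs were chosen with earlier results of these data known. Genes were named by rule: the 7 genes, up to 6 relatives by level, in each list up to 6 by smallest p and 3 by level, and the 3 nearest profiles, with exceptions stated. Sequences are from RefSeq on GRCm38.p6. Tables and figures were made in Python 3.11.15 (pandas 2.3.3, numpy 2.4.6, matplotlib 3.10.9).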

Additional observations from a re-analysis of the deposited data

How the results depend on the processing

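The directions and calls of Msln, Upk1b, Upk3b, Lrrn4 and Gpm6a held under all 9 other settings and in all 6 fits that left out 1 library. With 1 library left out their log2 fold changes were -0.95 to -0.93 for Msln, -0.32 to -0.28 for Upk1b, 0.57 to 0.60 for Upk3b, 0.35 to 0.45 for Lrrn4 and 0.40 to 0.52 for Gpm6a. Under the other settings they were -0.97 to -0.92, -0.34 to -0.30, 0.55 to 0.69, 0.37 to 0.46 and 0.41 to 0.60. Wt1 was the exception. Its log2 fold change of 0.18 passed without the variance trend (limma adjusted p = 0.0374) and with the replicate block (limma adjusted p = 0.0485), and the cause was not tested. With 1 library left out it was 0.13 to 0.24, with an adjusted p of 0.0135 to 0.168. Mesothelial genes called higher were 3 or 4 and those called lower 2 throughout. Over all genes 5947 to 6872 were called under the other settings and 5393 to 5664 with 1 library left out, against 6084. Median-of-ratios scaling gave 3016 higher and 3096 lower and quantile normalization 2911 and 3290, against 3414 and 2670, and the median log2 fold change of all tested genes was -0.011 and -0.023 there, against 0.019. Whether same-numbered libraries of the 2 genotypes belong together is not given in the labels. Their deviations from the group means correlated across genes at -0.191, 0.254 and -0.272. For differently numbered libraries the correlations were -0.24 to 0.381. Deviations within a genotype depend on one another, so these values cannot settle whether libraries were paired. With the replicate block 6134 genes were called, and apart from Wt1 no mesothelial gene changed its call. Of the other genes listed, Myh11 and Cnn1 each lost their call in 3 of the 6 fits that left out 1 library (limma adjusted p = 0.0786 to 0.1 and 0.0556 to 0.0961), and Notch3 was called lower with quantile normalization and without HEY1-WT KI replicate 1 (limma adjusted p = 0.035 and 0.0298). Cd68 lost its call under 4 alternatives (limma adjusted p = 0.0549 to 0.0929) and Lyz2 under 2 (limma adjusted p = 0.0992 and 0.124). Snai2 lost it without HEY1-WT KI replicate 3 (limma adjusted p = 0.052). Scgb1a1 and Cyp2f2 were called higher without replicate 3 of either genotype, Sftpa1 without HEY1-3KR KI replicate 3, Lyz1 without HEY1-3KR KI replicate 1, Nkain4 without HEY1-3KR KI replicate 2 and Bcl2 without the variance trend, and Cav1 was called lower with median-of-ratios scaling. No read totals are given, so the precision that depth allows is only approximate, from fragment estimates for 4 of the 7 mesothelial genes.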
